A study of Mus musculus with 2 samples.

Results

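Genes of mitosis were compared between mDom-/- and wild-type mouse embryos at embryonic day 8.5 (E8.5). The list held 36 genes of the G2 and M phases of the cell cycle, and a gene was included when the platform annotation gave it a probe of its own, under its symbol or an older synonym. That left 34 of the 36, all of them above the floor for dim probes on both arrays, among 13137 genes compared in all. Ccnb1, encoding cyclin B1, had no such probe listed, and the only probe of Ndc80 was annotated to a further gene and was not used. The study hybridised total RNA of the whole embryo proper to 1-colour CodeLink oligonucleotide arrays, 1 array per group. The mDom-/- array carried RNA pooled from 45 embryos homozygous for a mutation of mDom (present symbol Ep400, the ATPase of the TIP60/p400 chromatin-remodelling complex), and the wild-type array RNA pooled from 42 litter-matched embryos. The labels do not describe the allele. A pool averages over embryos and gives no measure of how they varied.

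Entry into mitosis is driven by the kinase CDK1 bound to A-type and B-type cyclins, held back by the kinase WEE1 and released by CDC25 phosphatases. Kinetochores then attach chromosomes to the spindle, the spindle checkpoint holds the anaphase-promoting complex (APC/C) back until attachment is complete, and the APC/C then releases sister chromatids. Many of these genes are transcribed in G2 and M through 2 promoter elements, the CHR (cell cycle genes homology region), read by the DREAM and B-MYB-MuvB complexes, and the CCAAT box, read by NF-Y. The level of such transcripts in a tissue depends in part on the share of cells in G2 and M, which was not measured here.

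Promoter sequences are shown for 7 members because they carry these elements, or lack them, at both ends of the measured range. Each covers 120 bases before and 30 after the RefSeq gene start (GRCm38.p6), 5′ to 3′ on the gene's strand. Capitals mark a CHR (TTTGAA or TTCGAA, or the reverse complement) and a CCAAT box (CCAAT or ATTGG). The first 3 genes were among the lowest ratios of mDom-/- over wild-type, and the other 4 were near even or slightly higher.
Ttk, chr9:83834569-83834718, plus strand: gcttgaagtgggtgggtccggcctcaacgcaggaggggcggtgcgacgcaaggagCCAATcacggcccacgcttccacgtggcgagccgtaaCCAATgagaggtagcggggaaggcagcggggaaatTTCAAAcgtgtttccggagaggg
Kif2c, chr4:117178743-117178892, minus strand: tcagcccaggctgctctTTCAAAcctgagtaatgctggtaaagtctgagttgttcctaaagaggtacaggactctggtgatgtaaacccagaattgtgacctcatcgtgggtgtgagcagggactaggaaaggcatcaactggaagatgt
Nuf2, chr1:169531435-169531584, minus strand: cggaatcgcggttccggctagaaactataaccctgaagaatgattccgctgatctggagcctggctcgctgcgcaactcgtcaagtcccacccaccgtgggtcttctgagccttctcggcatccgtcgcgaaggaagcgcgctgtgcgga
Cdk1, chr10:69352883-69353032, minus strand: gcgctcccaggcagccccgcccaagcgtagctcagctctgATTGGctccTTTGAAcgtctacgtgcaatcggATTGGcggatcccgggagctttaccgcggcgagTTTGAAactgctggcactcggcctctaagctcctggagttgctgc
Ube2c, chr2:164769809-164769958, plus strand: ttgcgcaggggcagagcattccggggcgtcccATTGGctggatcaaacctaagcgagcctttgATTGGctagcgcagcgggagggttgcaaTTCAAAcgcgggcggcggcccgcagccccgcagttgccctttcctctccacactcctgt
Ccnb2, chr9:70421525-70421674, minus strand: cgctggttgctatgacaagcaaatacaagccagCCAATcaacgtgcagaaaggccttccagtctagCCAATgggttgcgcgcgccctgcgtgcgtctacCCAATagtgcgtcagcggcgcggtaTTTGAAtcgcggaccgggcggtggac
Birc5, chr11:117849117-117849266, plus strand: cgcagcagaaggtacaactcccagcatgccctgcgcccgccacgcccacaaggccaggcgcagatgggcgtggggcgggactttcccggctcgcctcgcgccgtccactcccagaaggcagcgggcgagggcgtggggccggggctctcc

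Spot intensities are multiples of each array's median, and a log2 ratio is mDom-/- over wild-type. A probe counted as above the floor when it exceeded 0.541, which was the 40th percentile of the array where that was higher. With 1 array per group there was no spread between replicates and no test, so genes are described by size, mainly by whether the log2 ratio was past 0.32 in either direction, a fold somewhat beyond the SD between probes. The only repeated measurement was that of genes with 2 probes: over 1302 such genes the SD of a log2 ratio between probes was 0.25, and over the 196 whose dimmer probe was at least 10 times the array median it was 0.14. Both probes are read on the same 2 arrays, so this SD covers only error particular to a probe. Labelling or hybridisation error shared by the probes of an array is not in it, nor are differences between pools. A probe's brightness depends on its sequence as well as on its transcript, so intensities of different genes are not compared as transcript levels.

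Both arrays had signal for tissues of the embryo at this stage: all 4 heart markers, all 4 somite and presomitic markers and 3 of 4 neural tube markers were compared, while the neural gene Sox2 was below the floor on both. Visceral endoderm markers also had signal, 3 of 4 being compared: Ttr (251 in mDom-/- and 167 in wild-type), Apoa1 (184 and 202) and Afp (28.7 and 36.0). Of 5 trophoblast and decidua markers 2 were compared, Prl8a2 (12.3 in mDom-/- and 11.1 in wild-type) and Ascl2 (2.97 and 2.10). Ep400 could not check the labels, since its 2 probes read -0.029 and 0.071 in the mDom-/- pool and 0.215 and 0.470 in the wild-type pool, all below the floor. Embryonic red-cell signal differed most among the markers: the summed intensity of Hba-x, Hbb-y, Gata1 and Alas2 was 30.5 in the mDom-/- pool and 340.4 in the wild-type pool. Of these, Gata1 was above the floor only in wild-type (0.219 in mDom-/- and 0.725 in wild-type). Of 5 markers of postmitotic neurons 4 were compared, with a summed intensity of 10.9 in the mDom-/- pool and 8.496 in the wild-type pool. Elavl3 was compared only through the mDom-/- pool (0.713 in mDom-/- and 0.255 in wild-type), so the wild-type sum holds a reading below the floor. Tubb3, the neuronal tubulin, read 3.86 in the mDom-/- pool and 1.92 in the wild-type pool, while Elavl4 read 1.39 in mDom-/- and 1.86 in wild-type and Dcx was below the floor on both. The part of red cells, neurons or any other of these tissues in the mitosis values was not tested. In RNA of whole embryos, fewer cells of a type cannot be told apart from less RNA per cell.

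Most mitosis genes read slightly lower in the mDom-/- pool. Their median log2 ratio was -0.11, against -0.0036 over all compared genes, and 27 of 34 lay below 0, against 50.5% of all genes. None was 2-fold apart, a size reached by 1.77% of all genes. Past 0.32 on the log2 scale on the lower side were 9 of 34 members (26.5%), against 14.2% of all genes, and on the higher side 0 of 34, against 12.4%. A single member, Wee1, was at least 1.5-fold lower, against 4.35% of all genes. Just past 0.32 lay Kif20a (log2 ratio -0.336) and just short of it Incenp (-0.318). Removing the trend of the ratio with brightness by loess moved the members' median to -0.18.

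**Figure D1:**
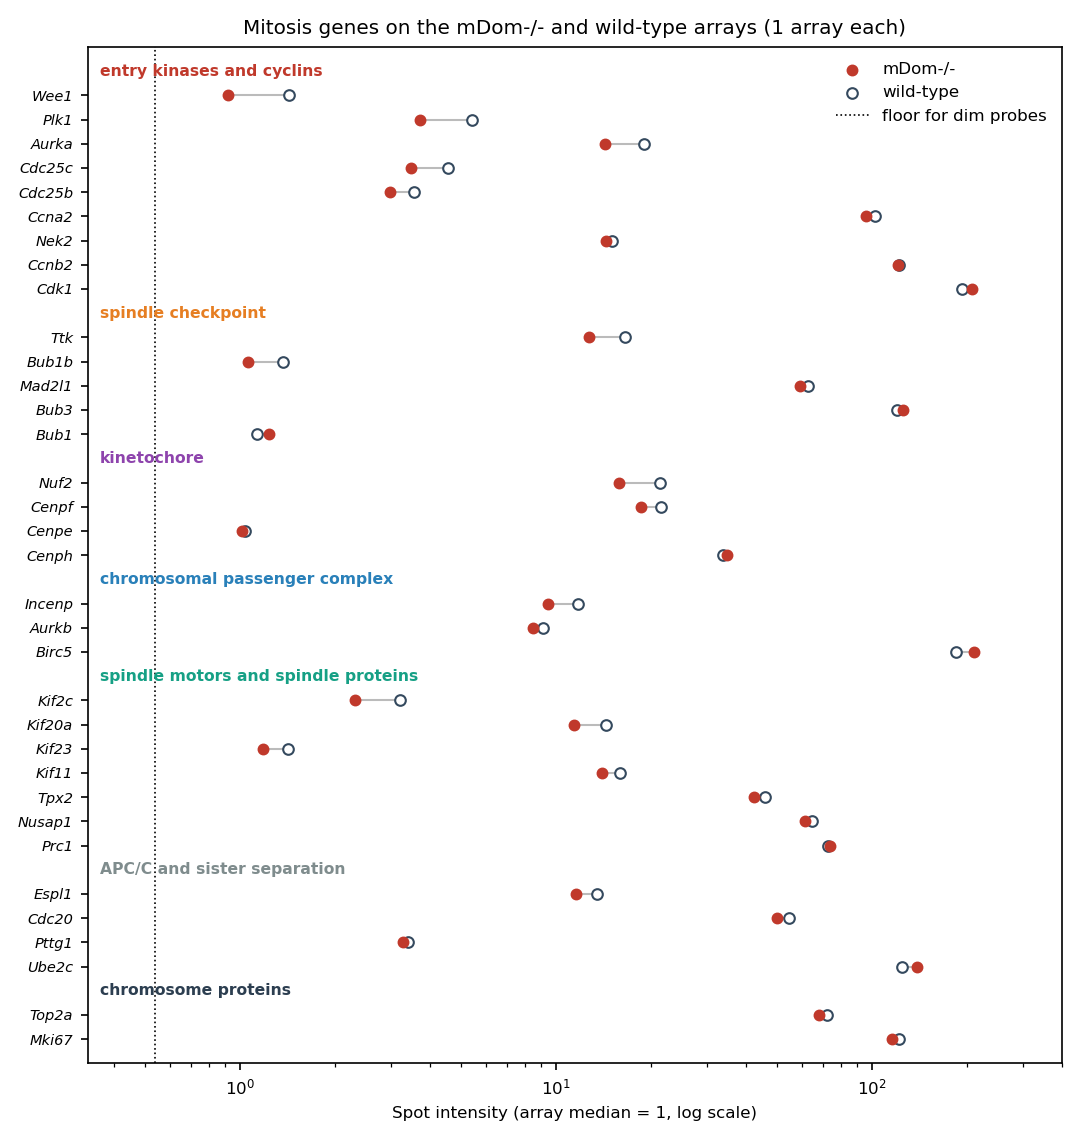
Spot intensity of the 34 mitosis genes on a log axis, in units of the array median, for the mDom-/- array (filled red) and the wild-type array (open), 1 array each, sorted by ratio within each role; the dotted line is the floor of 0.541. The mDom-/- point lies left of the wild-type point for 27 genes, with the widest gaps for Wee1, Plk1 and Kif2c.

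Of the kinases and cyclins of mitotic entry, 8 of 9 lay below 0, against 50.5% of all genes, with a median log2 ratio of -0.25. Lower by more than 0.32 were 4 of 9, against 14.2% of all genes. Wee1, the kinase that puts the inhibitory phosphate on CDK1, read 0.917 in the mDom-/- pool and 1.43 in the wild-type pool, 1.56-fold lower (log2 ratio -0.65), dim enough to be left out with a floor at the 60th percentile. Plk1, polo-like kinase, which acts at centrosomes and in mitotic entry, read 3.71 in mDom-/- and 5.41 in wild-type, 1.46-fold lower (-0.55). Wee1 thus opposes CDK1 and Plk1 promotes its activation, and both were at the low end. The phosphatase gene Cdc25c, whose product removes the inhibitory phosphate, read 3.47 in mDom-/- and 4.56 in wild-type, 1.31-fold lower (-0.39). Its relative Cdc25b read 2.99 in mDom-/- and 3.56 in wild-type, short of 0.32 (-0.25). Aurora A kinase, which works at the spindle poles, gave an ambiguous value because its gene Aurka had 2 probes that disagreed. The brighter Aurka probe read 14.3 in mDom-/- and 19.0 in wild-type (1.33-fold lower, -0.41), and the dimmer one 2.10 in mDom-/- and 2.11 in wild-type (-0.0065). Their mean log2 ratio, -0.21, was short of 0.32.

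The cyclins and their kinase were close on the arrays when scaled to the median, less so with quantile normalization or loess. Ccna2, cyclin A2, read 95.7 in the mDom-/- pool and 103 in the wild-type pool (log2 ratio -0.10), and its ratio was -0.21 with quantile normalization and -0.20 with loess. Ccnb2, cyclin B2, read 121 in mDom-/- and 122 in wild-type (-0.014; -0.13 with loess). Cdk1 itself read 207 in mDom-/- and 193 in wild-type (0.10), but its ratio was below 0 with quantile normalization (-0.0096) and with loess (-0.052). Nek2, a kinase that separates centrosomes, read 14.4 in mDom-/- and 15.01 in wild-type (-0.059). With scaling to the median these 4 ratios were smaller than the SD of 0.14 between bright probes of 1 gene, and with quantile normalization or loess that of Ccna2 was larger. The Cdk1 and cyclin probes were much brighter than those of Wee1, Plk1, Cdc25c and Cdc25b, and the part of brightness in the difference between them was not tested.

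The spindle checkpoint genes were split. Ttk, whose kinase (MPS1) starts the checkpoint signal at unattached kinetochores, read 12.8 in the mDom-/- pool and 16.6 in the wild-type pool, 1.30-fold lower (log2 ratio -0.37). Bub1b, encoding BUBR1, a part of the inhibitor that binds CDC20, read 1.06 in mDom-/- and 1.37 in wild-type, 1.29-fold lower (-0.37), and was left out with the 60th percentile floor too. A CHR lay in the promoter windows of both, that of Ttk visible above, and equally in those of Bub1 and Bub3, which were not lower on the probes used. The checkpoint kinase gene Bub1 had dim probes of opposite sign: the brighter read 1.23 in mDom-/- and 1.13 in wild-type (0.12), and the dimmer 0.572 in mDom-/- and 0.708 in wild-type (-0.31). Bub3, their binding partner, was even on its 2 bright probes, which read 125 and 81.0 in mDom-/- and 120.2 and 79.3 in wild-type (0.061 and 0.030; -0.056 on the brighter with loess), and a further probe was below the floor on both arrays. Mad2l1, the core of the checkpoint inhibitor, read 59.4 in mDom-/- and 62.9 in wild-type (-0.084; -0.15 with loess). The median of the 5 genes was that of Mad2l1.

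Among kinetochore genes, 1 of 4 was lower by more than 0.32, against 14.2% of all genes, and 4 genes are too few to set apart from that share. Nuf2, a subunit of the NDC80 complex that grips microtubules, read 15.8 in the mDom-/- pool and 21.4 in the wild-type pool, 1.35-fold lower (log2 ratio -0.43). That value came from 1 probe. It was larger than the SD between probes (0.14 for bright pairs, 0.25 for all), which holds no error of arrays or pools. Its promoter window holds neither a CHR nor a CCAAT box. Cenpf, a large protein of the outer kinetochore, read 18.6 in mDom-/- and 21.5 in wild-type (-0.21). Cenph, of the inner kinetochore, read 34.8 in mDom-/- and 33.9 in wild-type (0.039), and Cenpe, a kinetochore kinesin, 1.02 in mDom-/- and 1.04 in wild-type (-0.033). The chromosomal passenger complex, which corrects wrong attachments, showed no common direction. Its scaffold gene Incenp read 9.44 in mDom-/- and 11.8 in wild-type (-0.32), and its kinase gene Aurkb 8.499 in mDom-/- and 9.11 in wild-type (-0.10). Birc5, encoding survivin, had the highest ratio of all members, with 211 in mDom-/- and 185 in wild-type (1.14-fold higher, 0.19), and 0.034 with loess.

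Spindle motors and spindle proteins had a median log2 ratio of -0.19 (-0.12 with the mean over probes). Below 0 were 6 of 7, against 50.5% of all genes. Kif2c, the kinesin that takes apart microtubule ends at centromeres, read 2.32 in the mDom-/- pool and 3.22 in the wild-type pool, 1.39-fold lower (-0.47). Kif20a, a kinesin of the central spindle, read 11.5 in mDom-/- and 14.47 in wild-type, 1.26-fold lower (-0.34), and was short of 0.32 with loess (-0.31), quantile normalization (-0.31) and scaling to the 75th percentile (-0.31). Kif23, which bundles the central spindle for cytokinesis, read 1.18 in mDom-/- and 1.42 in wild-type (-0.27). These 3 kinesin genes were thus the low end of the group. Kif11, the motor that pushes spindle poles apart, gave -0.19 on the probe used (14.0 in mDom-/-, 15.9 in wild-type) and 0.013 on a second (14.4 in mDom-/-, 14.3 in wild-type). The microtubule-binding genes were all short of 0.32. Tpx2, the activator of Aurora A, read 42.3 in mDom-/- and 46.0 in wild-type (-0.12). Nusap1 read 61.5 in mDom-/- and 64.9 in wild-type (-0.078; -0.15 with loess). Prc1, the cross-linker of the central spindle, read 73.8 in mDom-/- and 72.8 in wild-type (0.019; -0.061 with loess).

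Of the genes of the APC/C and of sister separation, 0 of 4 were past 0.32, against 14.2% of all genes lower and 12.4% higher. Cdc20, the activator that the checkpoint restrains, read 49.98 in the mDom-/- pool and 54.7 in the wild-type pool (log2 ratio -0.13). Ube2c, the ubiquitin-conjugating enzyme of the APC/C, read 139 in mDom-/- and 124 in wild-type (0.16; 0.038 with loess). Securin, encoded by Pttg1, is the APC/C target that holds separase back, and it read 3.28 in mDom-/- and 3.40 in wild-type (-0.054). Espl1, separase itself, read 11.6 in mDom-/- and 13.5 in wild-type (-0.22). The widely used proliferation marker Mki67, which coats mitotic chromosomes, read 116 in mDom-/- and 122 in wild-type (-0.077; -0.14 with quantile normalization and -0.19 with loess). Top2a, the topoisomerase that untangles sister chromatids, read 68.3 in mDom-/- and 72.3 in wild-type (-0.083; -0.16 with loess), and its second probe was below the floor on both arrays. The ratios of Mki67 and Top2a were thus inside the SD of 0.14 between bright probes with scaling to the median and outside it with loess.

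**Figure D2:**
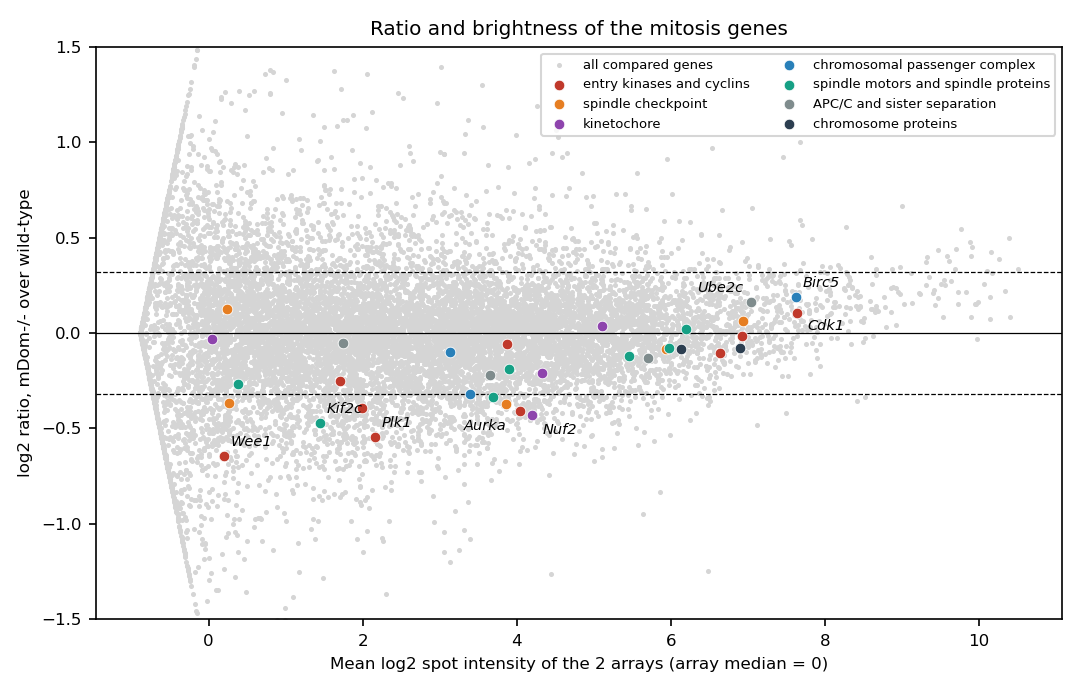
log2 ratio of mDom-/- over wild-type against the mean log2 intensity of both arrays, for all 13137 compared genes (grey; ratios beyond 1.5 on either side are outside the axis) and the 34 mitosis genes coloured by role; dashed lines mark 0.32 in both directions. Members at the bright end lie close to 0, and those below the lower line lie among dim and middling probes.

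The ratio varied among the members with the brightness of the probe. The 12 members at 50 or more on the wild-type array had log2 ratios from -0.13 to 0.19, with a median of -0.045 (-0.14 with loess) and none past 0.32. The 22 members under 50 ranged from -0.65 to 0.12, with a median of -0.26 (-0.25 with loess). Of these 22, 20 lay below 0 and 9 were lower by more than 0.32, against 50.5% and 14.2% of all genes. Across the 34 genes, Pearson's r of the ratio with mean log2 intensity was 0.57 and Spearman's rho 0.55, against 0.037 and 0.028 across all 13137 genes; with loess both members' coefficients were 0.40. All points come from the same 2 arrays and genes are not independent replicates, so these coefficients are a description. All compared genes were also cut into 4 classes of equal size by brightness, and the members' median lay below that of all genes in each. In the dimmest class 5 members had a median of -0.27, against 0.0063 for all genes there, and in the next class 5 members had -0.39, against -0.016. In the brighter classes 7 members had -0.22, against -0.028, and 17 members in the brightest had -0.078, against 0.026. From the dimmest class to the brightest, the shares lower by more than 0.32 were 2 of 5 members against 23.2% of all genes, 3 of 5 against 15.5%, 2 of 7 against 12.1%, and 2 of 17 (Aurka and Nuf2) against 5.78%. The fraction of all genes so called fell with brightness, and among the members it was highest in the second class.

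The promoter elements were common among the members, whichever way their ratio lay. RefSeq windows from 250 bases before to 50 after the gene start were matched by symbol for 29 of the 36 listed genes. Either strand was searched, CHR and CCAAT matches were counted independently, and a gene with several windows was counted once. A CHR was present in 20 of the 29 (69.0%), against 21.7% of 27025 genes with a window and 17.1% of the 10570 of these that were compared on the arrays. A CCAAT box was present in 22 of 29 (75.9%), against 41.1% of all genes with a window, and both elements in 18 of 29 (62.1%), against 9.65%. An E2F-type core (TTCCCGC or TTGGCGC, and as variants TTCGCGC and also TTGCCGC), the element of many S-phase genes, was present in 4 of 29 (13.8%), against 10.9% of all genes with a window and 17.6% of those compared, so the members lay between the 2 backgrounds. Of the 6 members lower by more than 0.32 with a window, 5 held a CHR, and of the other 21 compared members with a window 14 did. The 19 compared members with a CHR had a median log2 ratio of -0.19 (from -0.55 to 0.16) and the 8 without had -0.057 (from -0.43 to 0.19). The ranges overlapped: Cdk1 and Ube2c, with CHR and CCAAT boxes printed above, were not lower, while Nuf2, with neither, was. A match of letters is a description and not evidence that a factor binds.

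**Figure D3:**
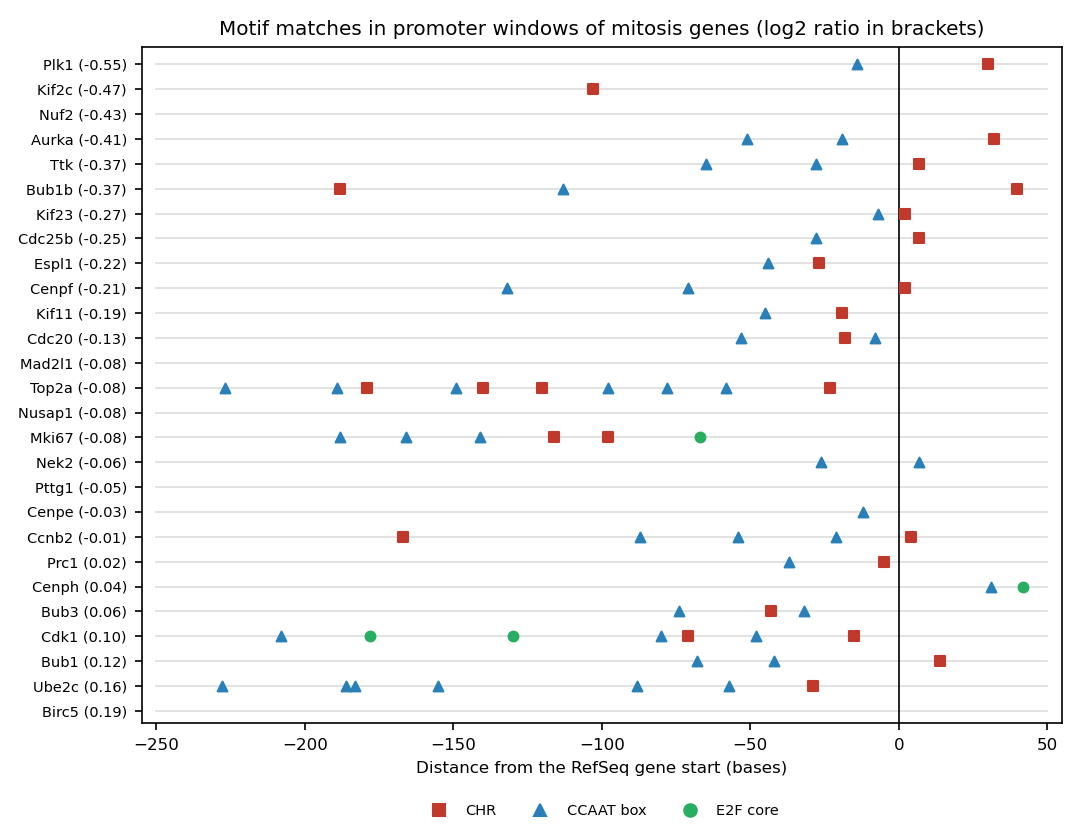
Positions of CHR (squares), CCAAT box (triangles) and E2F core (circles) matches relative to the RefSeq gene start, in bases, in the promoter windows of 27 compared mitosis genes (1 window per gene), ordered by log2 ratio with the lowest on top. CHR matches occur from the top (Plk1, -0.55) to near the bottom (Ube2c, 0.16).

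Other genes of mitosis, taken from 8 lists, read lower to a like degree. Of 108 listed genes 91 were compared, with a median log2 ratio of -0.14, and 67 lay below 0 (73.6%, against 50.5% of all genes). Lower by more than 0.32 were 24 of 91 (26.4%), against 14.2% of all genes, and 0 were higher by as much, against 12.4%. These genes too varied with brightness: from the dimmest class to the brightest their medians were -0.48, -0.38, -0.20 and -0.028. The brightest class held 42 of the 91, and all genes there had a median of 0.026. The lowest measured on both arrays was Cdca5 (sororin, which protects cohesion), at 2.86 in the mDom-/- pool and 5.28 in the wild-type pool, 1.85-fold lower. Zw10, which brings dynein to kinetochores, read 2.83 in mDom-/- and 4.38 in wild-type, 1.55-fold lower. Cenpq, of the inner kinetochore, read 9.17 in mDom-/- and 14.2 in wild-type, 1.54-fold lower. At the other end were the APC/C subunit gene Anapc13 (93.7 in mDom-/- and 77.7 in wild-type, 0.27), the cohesin release factor gene Wapl (0.22 on one probe and 0.048 on another) and Foxm1, a transcription factor of G2 and M genes (1.499 in mDom-/- and 1.31 in wild-type, 0.20).

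The 8 lists did not all lie alike, and their counts below 0 stand beside 50.5% of all genes. Genes of cytokinesis and the passenger complex had a median log2 ratio of -0.30 with 8 of 8 below 0, though 1 of them, Cit, was above the floor only in wild-type and gives a bound. With a floor at the 60th percentile their median was -0.18 over 6 genes, no longer the lowest of the lists. The other kinesins had -0.26 (4 of 6 below 0), and -0.13 with floors at the 25th or 60th percentile, which compare 7 or 5 of them. Other kinetochore genes had -0.18 (19 of 26), condensins -0.17 (6 of 8, with Ncapg2 a bound) and regulators of the G2 and M phases -0.12 (11 of 13). Spindle assembly genes had -0.070 (6 of 8) and cohesin genes -0.036 (8 of 11), or -0.11 with the mean over probes. The order of the lists thus depended on the floor and the probe rule. Subunits and inhibitors of the APC/C, many of which are made throughout the cell cycle, had 0.015 (5 of 11 below 0), and -0.015 with loess.

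**Figure D4:**
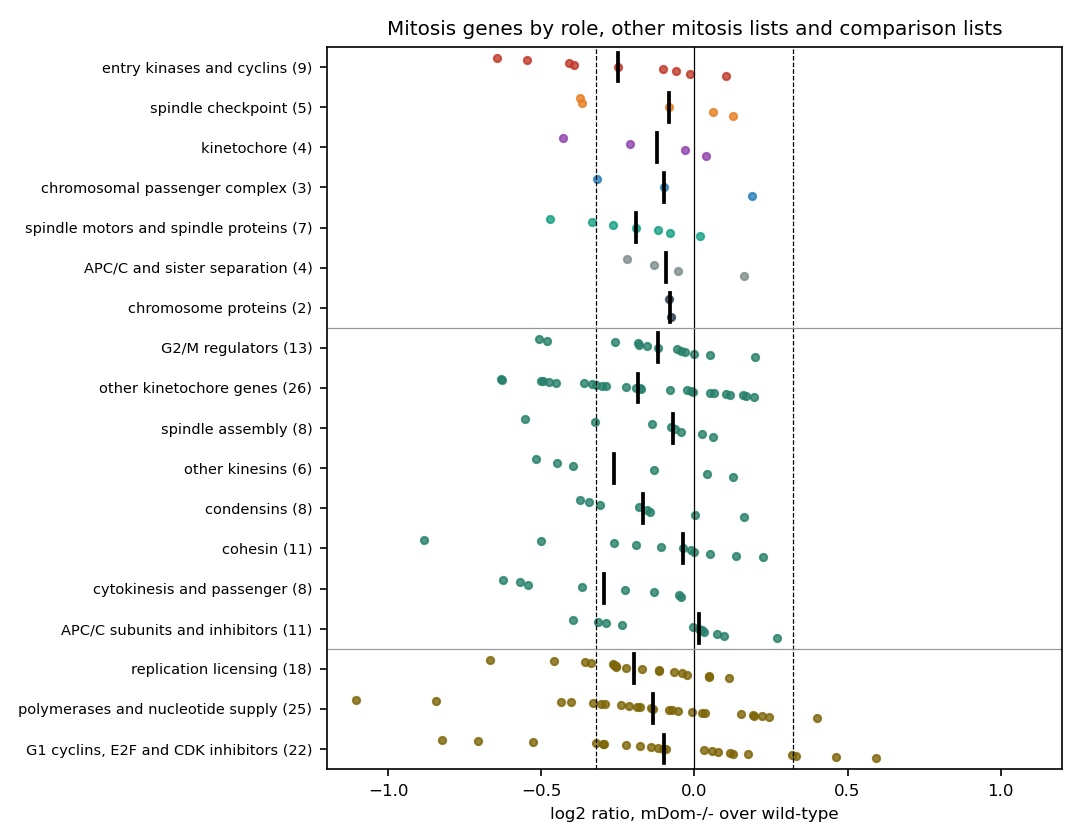
log2 ratio of mDom-/- over wild-type for each gene (points) and the median (black bars) of the 7 roles of the mitosis genes (top), 8 lists of other mitosis genes (middle) and 3 lists from earlier in the cell cycle (bottom), with the number of genes compared in brackets; dashed lines mark 0.32 in both directions. Medians run from -0.30 (cytokinesis and passenger) to 0.015 (APC/C subunits and inhibitors).

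Genes from earlier in the cell cycle gave medians of a like size, and their counts below 0 stand beside 50.5% of all genes. Replication licensing and helicase genes had a median log2 ratio of -0.20 over 18 genes, with 15 below 0, from -0.67 (the origin recognition gene Orc5) to 0.11 (the loading factor gene Cdt1). Replicative polymerases and nucleotide supply had -0.14 over 25 genes, with 17 below 0, from -1.11 (Pola1, DNA polymerase alpha) to 0.40 (Pold4). Both of these genes were dim, with 1 compared probe each. Pola1 read 0.642 in mDom-/-, near the floor of 0.541, and 1.38 in wild-type. Pold4 read 1.87 in mDom-/- and 1.42 in wild-type. Cyclins of G1, E2F factors and CDK inhibitors had -0.098 over 22 genes, with 12 below 0, and ran on both arrays from -0.71 (Ccnd3, cyclin D3) to 0.59 (Cdkn1a, the inhibitor p21). Lower by more than 0.32 were 4 of 18 licensing genes (22.2%) and 5 of 25 polymerase and nucleotide genes (20%), against 14.2% of all genes. Higher by as much were 0 of 18 and 1 of 25 (4%), against 12.4%. The G1 list had 3 of 22 genes lower (13.6%) and 3 of 22 higher (13.6%), both near the share of all genes. With 1 array per group the differences between these lists and the mitosis genes have no test.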

How the data were processed

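The authors deposited 1 linear spot intensity per probe and array, from images analysed with CodeLink System Software, per the labels. No label or header states its version, background correction, scaling or detection flags. The columns had medians near 1.05 and held values below 0, and the code -9999 was read as no value (106 mDom-/- and 105 wild-type probes of 36227). Probes with 1 gene symbol (21615) took current names by Entrez identifier from RefSeq's table for GRCm38.p6, where 21487 matched, and probes with several symbols were not used.

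Intensities were scaled to the array median, values under the floor were set to it, and log2 was taken (Python 3.11.15). Probes above the floor on either array were compared. A gene took its brightest compared probe. The ratio calculation was run on a copy of the wild-type array with set fold changes and no added noise, which checks the arithmetic only. Groups came from the sample titles. The members, lists, roles, motifs and the size rule were chosen with earlier results of these data known. Every member is named, and of other lists the extremes measured on both arrays. With 1 array per group no test was possible, so precision is limited by array number. Promoter sequences are RefSeq's (GRCm38.p6). The 7 printed, the brightness classes and the levels of 10 and 50 that divide bright from dim probes were chosen after values were seen.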

Additional observations from a re-analysis of the deposited data

How the results depend on the processing

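The members' median log2 ratio stayed below 0 under the 8 alternatives, from -0.18 with loess (span 0.3) to -0.088 with scaling to the 75th percentile. Between 23 (of 29, 60th percentile floor) and 30 (of 34, loess) lay below 0, against 47.1% to 51.2% of all genes across settings. Between 7 and 9 members were lower by more than 0.32 (log2) under each scaling, floor and probe rule, and none was higher by as much. The share of all genes so called changed with the floor. With the 60th percentile floor 7 of 29 members were lower, against 10.7% of all genes (8.40% higher). With the 25th percentile floor 9 of 34 were lower, against 18.3% (17.4% higher). A 1.5-fold size rule left 1 member lower, against 4.35% of all genes. The 9 were not the same genes throughout: the 60th percentile floor left Wee1 and Bub1b out, Kif20a dropped out with 3 scalings, and Aurka with the mean over probes. Among members near 0 the sign changed for Cdk1, Prc1 and Bub3 with loess, Cdk1 and Prc1 with quantile normalization, Ccnb2 with the 75th percentile scaling and Bub1 (-0.092) with the mean over probes. Loess lowered the ratios of bright members, so the median of the 12 at 50 or more was -0.14 with it (a split chosen after seeing the data). Of the other mitosis genes 1 of 95 was higher by more than 0.32 with the 25th percentile floor, which compares more dim genes, against 17.4% of all genes. The median of the APC/C subunits changed sign with loess (-0.015). The floor moved the medians of the other kinesins (-0.13) and of cytokinesis genes (-0.18), and the mean over probes that of cohesin (-0.11). The G1 list's median was -0.031 with the 25th and 60th percentile floors and with both arrays above the floor, which change the genes compared. No paired analysis was possible because there was 1 array per group. The precision is limited by the number of arrays and, for dim probes, by signal near the floor.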

Other observations

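Among the G1 genes, 3 inhibitors of cyclin-dependent kinases were those higher by more than 0.32 on the log2 scale, and they were singled out after their values were seen. As 3 of 22 genes of that list (13.6%, against 12.4% of all compared genes), they are close to the background share and are given as values only. Cdkn1a read 2.84 in the mDom-/- pool and 1.88 in the wild-type pool (1.51-fold higher), Cdkn2b 1.75 in mDom-/- and 1.27 in wild-type (1.38-fold), and Cdkn2d 21.9 in mDom-/- and 17.4 in wild-type (1.26-fold). Cdkn2c went the other way, above the floor only in wild-type and at least 1.77-fold lower, and Cdkn1c was near even (log2 ratio 0.12). Each had 1 compared probe.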
